A study of Homo sapiens with 6 samples.

Results

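Cathepsins are peptidases, most of them lysosomal, and 10 of their genes were followed here: CTSA, CTSB, CTSC, CTSD, CTSF, CTSH, CTSK, CTSL, CTSS and CTSZ. They were taken by gene symbol, as a list drawn up with earlier results of these data known. All 10 of the listed symbols were annotated on the array, each by 1 probe set, among 14884 genes tested. The cells were SKOV3, an established human ovarian cancer line. The 2D control group was kept for 11 days on attachment plates in McCoy's 5A medium with 15% serum, with Milli-Q water in place of the additive (n = 3 arrays). The 3D group spent the same 11 days on low-attachment plates in that medium with 0.015% (w/v) FP001, an additive known here by its code name (n = 3 arrays). Plate and additive were changed together, so their effects cannot be told apart. Both groups come from 1 cell line, and the labels do not say whether arrays of a group came from separate cultures, so the p-values measure the spread between these arrays, which may be technical.

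Lysosomal cathepsins are made as inactive precursors, tagged with mannose 6-phosphate in the Golgi, carried to the lysosome and activated there by cleavage at acid pH. Most are cysteine peptidases of the papain family (CTSB, CTSC, CTSF, CTSH, CTSK, CTSL, CTSS and CTSZ), whereas CTSD is an aspartic peptidase and CTSA a serine carboxypeptidase. Tumour cells can also secrete cathepsins, which then cleave matrix proteins outside the cell. Cystatins are the main protein inhibitors of the cysteine cathepsins.

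Values are log2 RMA values, 1 array per sample. Across genes, arrays correlated at 0.991 to 0.993 within 2D, at 0.988 to 0.995 within 3D and at 0.975 to 0.982 between groups, and 3D replicate 1 stood somewhat apart from the other 3D arrays (r = 0.988 with each). Of 10 markers of ovarian carcinoma lines 7 were measured, and 2 rose, 1 fell and 4 did not pass (limma, adjusted p under 0.05). Over all genes 5.23% were called higher and 4.77% lower in 3D, the shares to set beside this and the other marker lists. PAX8, a lineage factor of Müllerian carcinomas, read 10.13 to 10.25 in 2D and 10.15 to 10.44 in 3D. The simple-epithelial keratin gene KRT18 read 9.50 to 9.76 and 9.75 to 10.22, from the brighter of its 2 probe sets. The epithelial adhesion gene EPCAM read 8.10 to 8.34 in 2D and 9.85 to 10.08 in 3D. The keratin gene KRT19 rose by 2.70 ± 0.24 (SE, n = 3) and EPCAM by 1.76 ± 0.11, whereas KRT7 fell from 6.07 ± 0.26 to 5.13 ± 0.025 (SD). The keratin gene KRT8 read 5.58 to 5.89 over all arrays, and the mesothelin gene MSLN 6.52 to 7.23. The array medians over all probe sets were 4.30 to 4.37. A level cannot be set against that of another gene on this array, and the table holds no detection calls.

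Cathepsin S rose about 2.08-fold in 3D, the largest change among the 10 genes, and cathepsins L and D rose by 36.1% and 34.5%. Thus 3 of the 10 genes rose, 0 fell and 7 did not pass the threshold of an adjusted p under 0.05 (limma, Benjamini-Hochberg over all 14884 genes). Of all genes 10% passed in either direction, 5.23% as higher and 4.77% as lower in 3D. At an unadjusted p under 0.05, 5 members were higher and 2 lower, against 1716 higher and 1777 lower of all 14884 genes. The median change was 0.26 on the log2 scale over the members and -0.01 over all genes. The groups did not overlap for 7 members, 5 higher and 2 lower, against 29.2% of all genes in either direction and 13.8% as higher in 3D. With 10 members these shares are a description of the list. The rise of CTSS held without any single array. When single arrays were left out, CTSL and CTSD stayed called only if that array was 3D replicate 1, and with any of the other 5 left out CTSS was the 1 member called.

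Promoter sequences are shown for CTSD and CTSL, which rose by similar amounts, and for CTSA and CTSF, which did not pass. They are RefSeq sequences (build GRCh38.p14), each the 150 bases before the gene's start, 5′ to 3′, and capitals mark CACGTG, the E-box core within the element bound by TFEB and its relatives, regulators of many lysosomal genes. The CTSD stretch lies at chr11:1763928-1764077, minus strand; that of CTSL at chr9:87725969-87726118, plus strand; that of CTSA at chr20:45891185-45891334, plus strand; and that of CTSF at chr11:66568607-66568756, minus strand.
CTSD: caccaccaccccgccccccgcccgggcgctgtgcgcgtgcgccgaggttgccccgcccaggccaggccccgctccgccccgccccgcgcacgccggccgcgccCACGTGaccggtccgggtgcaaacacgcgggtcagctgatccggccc
CTSL: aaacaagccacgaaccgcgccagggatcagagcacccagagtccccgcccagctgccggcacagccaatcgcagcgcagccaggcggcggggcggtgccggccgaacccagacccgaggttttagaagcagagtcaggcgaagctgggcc
CTSA: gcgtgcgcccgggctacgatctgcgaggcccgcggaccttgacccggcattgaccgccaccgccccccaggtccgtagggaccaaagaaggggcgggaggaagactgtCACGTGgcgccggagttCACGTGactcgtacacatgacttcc
CTSF: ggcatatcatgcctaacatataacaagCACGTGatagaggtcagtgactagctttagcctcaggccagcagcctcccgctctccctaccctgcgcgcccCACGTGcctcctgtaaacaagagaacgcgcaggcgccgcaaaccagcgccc

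The promoter table held 7 of the 10 members, leaving CTSB, CTSK and CTSS unmatched. Its windows run from 250 bases before to 50 bases after the start, and the motif is a palindrome, so both strands give the same matches. CACGTG was found in 3 of the 7 windows, against 7.43% of 27305 promoters of the same length. CTSD held 1 match, beginning 47 bases before the start. CTSA held 2, at 42 and 25 bases, and CTSF 2, at 123 and 51 bases before the start. The windows of CTSC, CTSH, CTSL and CTSZ held none. In the related lists described further on, 4 of 6 windows of other lysosomal peptidases and partners held it (DPP7, NAPSA, NEU1 and SCPEP1), as did 2 of 3 windows of sorting genes, 4 of 13 of regulators, 1 of 5 of inhibitors and 0 of 3 of other cathepsins. Of the members, CTSD rose and held a match, CTSA and CTSF held matches and did not pass, and CTSL rose without one. CTSS had no window, and a link between the motif and the rises was not tested. Among tested genes with a promoter in the table, the median change was -0.01 both in the 970 with the motif and in the 9779 without it. A match describes the letters alone and is no evidence of a bound site.

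CTSS (probe set 16692834) encodes a cysteine endopeptidase that stays active at neutral pH and that trims the MHC class II invariant chain in antigen-presenting cells. It read 5.87, 5.86 and 5.79 in 2D replicates 1 to 3 and 7.02, 6.94 and 6.73 in 3D replicates 1 to 3. All 3D arrays were high, and the lowest of them lay 0.86 above the highest 2D array, so the groups did not overlap. The mean went from 5.84 ± 0.042 to 6.90 ± 0.15 (SD, n = 3 each), a change of 1.06 ± 0.11 (SE, 95% interval 0.81 to 1.30) with an adjusted p of 0.000924 (limma). Of all genes, 2.69% had a larger absolute change. In bulk RNA, more cells with the transcript and more transcript per cell cannot be told apart.

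CTSS is strongly expressed by macrophages and other leukocytes, so their markers stand beside it. Of 10 such markers 6 were measured; PTPRC, FCGR3A, AIF1 and CD74 were not analysed here. LYZ (lysozyme) rose from 3.24 ± 0.11 to 5.08 ± 0.65 (SD, n = 3), and by 1.06 rather than 1.83 as the mean of its 2 probe sets. CD68, which encodes a lysosomal membrane glycoprotein also made outside macrophages, rose from 9.06 ± 0.18 to 9.75 ± 0.019. The other 4 did not pass. At an unadjusted p under 0.05 (limma), 2 of the list were higher and 2 lower (CSF1R and CD14), against 1716 higher and 1777 lower of all 14884 genes. CSF1R read 5.04 ± 0.086 and 4.66 ± 0.27, CD163 2.65 ± 0.068 and 2.71 ± 0.14, and TYROBP 5.25 ± 0.22 and 5.17 ± 0.19, in 2D and 3D. CD14 gave a difference of -0.41 ± 0.16 (SE, 3D minus 2D). The list's mean level, relative to each gene's own mean, ran from -0.15 to -0.13 in the 2D arrays and from 0.10 to 0.20 in the 3D arrays, while the list's median change was -0.01. Of 10 fibroblast and endothelial markers 4 were measured; the endothelial and leukocyte adhesion gene PECAM1 rose (1.27 ± 0.14 SE, n = 3) and DCN, THY1 and VWF did not pass. That list's mean level ran from -0.25 to -0.04 in 2D and from 0.06 to 0.30 in 3D. Its median level overlapped between the groups (-0.10 to 0.01 in 2D, -0.04 to 0.19 in 3D), and its median change was 0.05. The part of other cell types in the CTSS value was not tested.

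CTSL (probe set 17086540) encodes an endopeptidase of broad specificity in the same family. Its values were 8.17, 8.12 and 8.06 in 2D replicates 1 to 3 and 8.49, 8.54 and 8.65 in 3D replicates 1 to 3. The 3D arrays lay at least 0.32 above the 2D arrays, a gap wider than the range within 2D (0.10) or 3D (0.16). The mean went from 8.12 ± 0.052 to 8.56 ± 0.082 (SD, n = 3), a change of 0.44 ± 0.09 (SE, 95% interval 0.23 to 0.66, limma adjusted p = 0.0236). Without single arrays other than 3D replicate 1, the adjusted p was 0.056 to 0.0992 and the change 0.40 to 0.47; without 3D replicate 1 it was 0.0226. Cathepsin L has a close paralog, CTSV, and several pseudogenes, and whether the probes tell them apart is not given in the sources used here, so both values are uncertain in that respect.

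CTSD (probe set 16734313) encodes the main aspartic peptidase of lysosomes. It read 12.68, 12.83 and 12.85 in 2D replicates 1 to 3 and 13.17, 13.21 and 13.27 in 3D replicates 1 to 3. All 3D arrays were above all 2D arrays, by 0.31 at the narrowest. The mean went from 12.79 ± 0.093 to 13.21 ± 0.049 (SD, n = 3), a change of 0.43 ± 0.09 (SE, 95% interval 0.21 to 0.65, limma adjusted p = 0.0287). The highest value of any probe set was 13.81 to 13.87 per array, so CTSD lay near the top of the scale; signal saturation was not tested. Without single arrays other than 3D replicate 1 the adjusted p was 0.0667 to 0.114, and without 3D replicate 1 it was 0.0328.

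**Figure D1:**
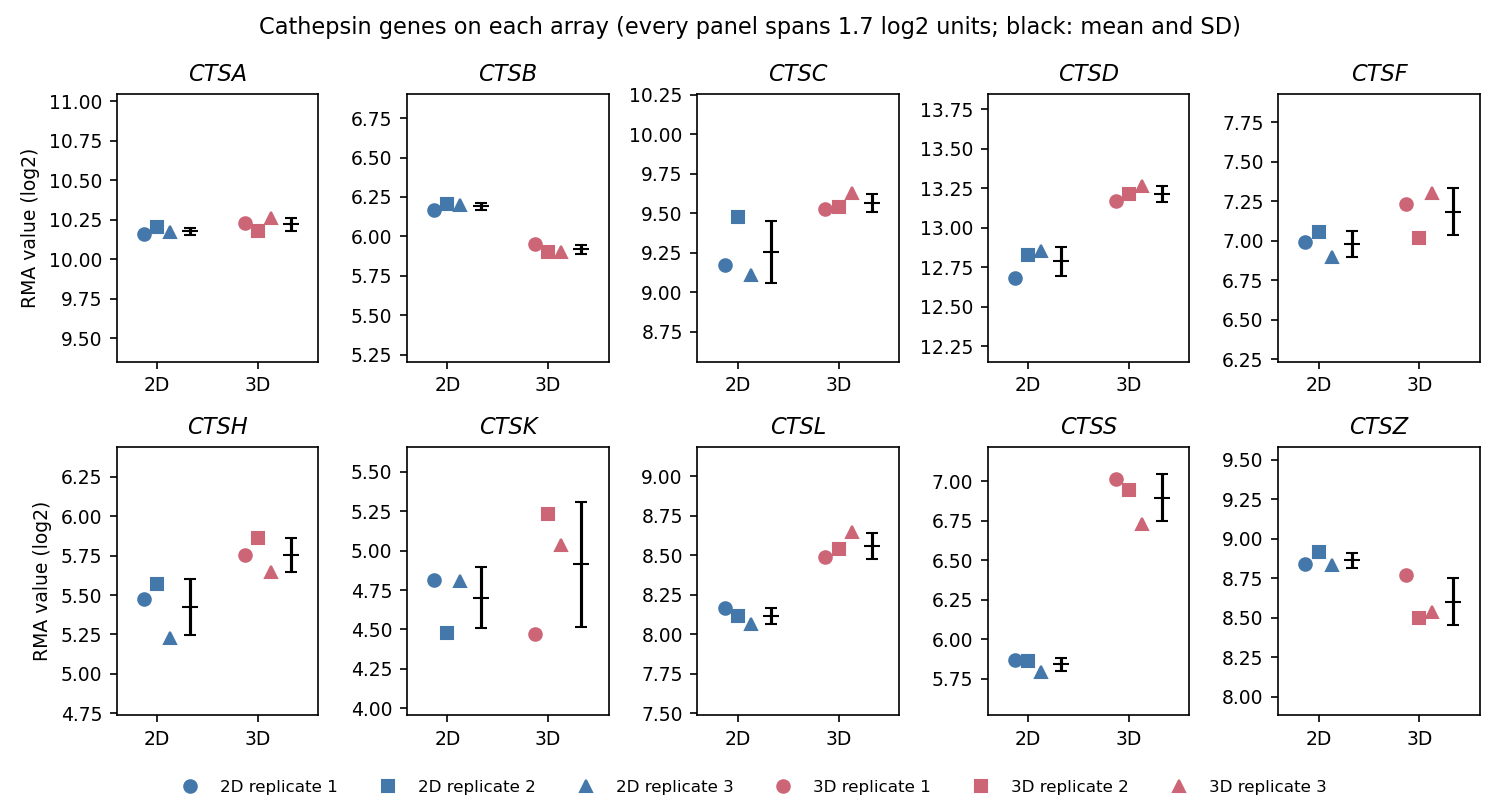
RMA values (log2, vertical axis) of the 10 cathepsin genes on each array, 2D in blue and 3D in red, with a marker shape per replicate and the mean ± SD of 3 arrays in black. Every panel spans 1.7 log2 units around its own centre; CTSS has the widest gap between groups (0.86), and CTSK is the most scattered in 3D (SD 0.40).

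The endopeptidase genes CTSK and CTSF did not pass. CTSK (probe set 16692846), known for degrading collagen in osteoclasts, read 4.82, 4.48 and 4.81 in 2D and 4.47, 5.23 and 5.04 in 3D replicates 1 to 3. The groups overlapped, with 3D replicate 1 the lowest of all arrays and 0.67 below the mean of the other 3D arrays. Its change was 0.21 ± 0.20 (SE, 95% interval -0.26 to 0.68, limma adjusted p = 0.617), and the value depended on single arrays: it was 0.43 without 3D replicate 1 (adjusted p = 0.0967), 0.05 without 3D replicate 2 (0.932) and 0.10 without 2D replicate 2 (0.872). All its values lay within about 1 unit of the array medians. CTSK is the next protein-coding gene to CTSS in the RefSeq annotation, and of this pair of neighbours CTSS alone was called; the difference between their changes was not tested.

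CTSF (probe set 16740828), another papain-family peptidase, read 6.99, 7.05 and 6.89 in 2D and 7.23, 7.02 and 7.30 in 3D. 3D replicate 2 fell inside the 2D range, so the groups overlapped. The change was 0.20 ± 0.11 (SE, n = 3, 95% interval -0.05 to 0.46, limma adjusted p = 0.322).

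The papain-family members that mainly trim chain ends were split in sign, and none of them passed. CTSH (probe set 16812245), an aminopeptidase, read 5.47, 5.57 and 5.23 in 2D and 5.76, 5.86 and 5.65 in 3D replicates 1 to 3. CTSC (probe set 16743111), the dipeptidyl peptidase that activates granule serine proteases of leukocytes, read 9.17, 9.47 and 9.11 in 2D and 9.53, 9.54 and 9.63 in 3D. For each of these genes all 3D arrays were above all 2D arrays, but the gap was small (0.076 for CTSH and 0.053 for CTSC) beside the 2D range of 0.34 and 0.37. CTSH gave 0.33 ± 0.12 (SE, 95% interval 0.05 to 0.61, limma adjusted p = 0.143). CTSC gave 0.31 ± 0.12 (SE, 95% interval 0.04 to 0.59, limma adjusted p = 0.161).

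CTSB and CTSZ were the 2 members with negative changes. CTSB (probe set 17074673), which cuts dipeptides from carboxyl ends and also acts as an endopeptidase, read 6.17, 6.21 and 6.20 in 2D and 5.95, 5.90 and 5.90 in 3D. It was the least scattered member in 3D (SD 0.029, against 0.022 in 2D), and its groups were 0.21 apart. Its change of -0.27 ± 0.08 (SE, 95% interval -0.47 to -0.08) did not pass over all genes (limma adjusted p = 0.0924, unadjusted p = 0.0129). The SE is larger than either SD because limma draws each gene's variance toward that of all genes. CTSZ (probe set 16920762), a carboxypeptidase, read 8.84, 8.92 and 8.83 in 2D and 8.77, 8.50 and 8.54 in 3D. Here 3D replicate 1 lay close under the 2D arrays and 0.26 above the mean of the other 3D arrays. The change was -0.26 ± 0.11 (SE, 95% interval -0.51 to -0.02, limma adjusted p = 0.186), and -0.35 without 3D replicate 1 (adjusted p = 0.0533).

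CTSA (probe set 16914352), the serine carboxypeptidase that also shields the sialidase NEU1 and beta-galactosidase from breakdown, had the smallest change. It read 10.16, 10.20 and 10.17 in 2D and 10.23, 10.18 and 10.26 in 3D, and the groups overlapped. The change was 0.04 ± 0.09 (SE, n = 3, 95% interval -0.15 to 0.24, limma adjusted p = 0.825).

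**Figure D2:**
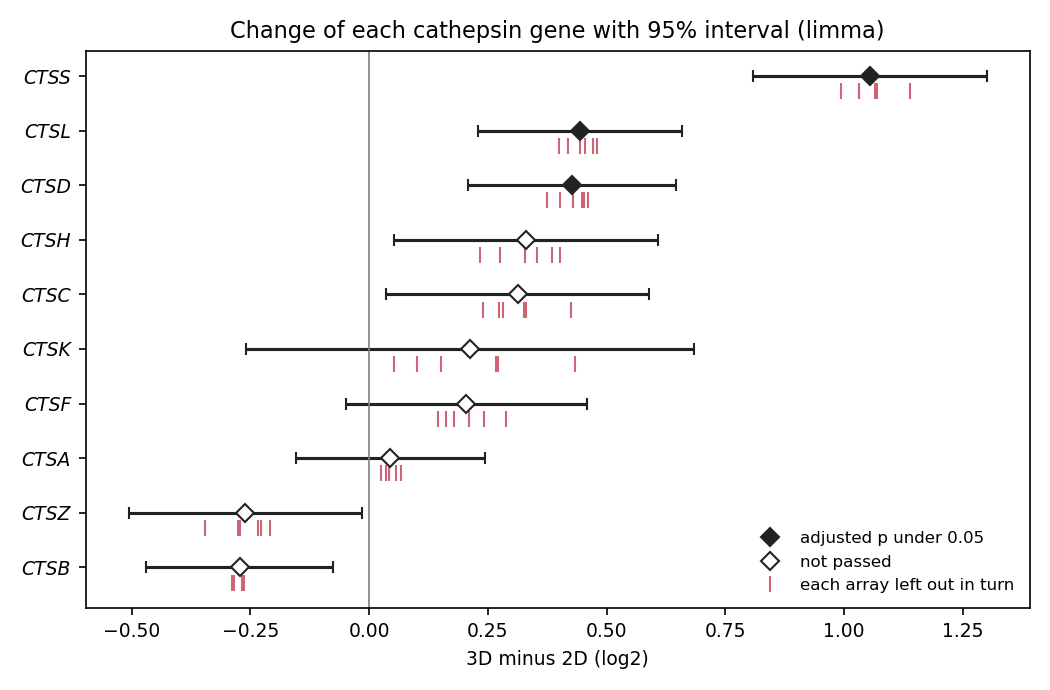
Fitted change of each cathepsin gene (3D minus 2D, log2, horizontal axis) with its 95% interval from limma; filled diamonds passed an adjusted p of 0.05, and red ticks give the change with each array left out in turn. CTSS (1.06) stands to the right of all others, and CTSB (-0.27) and CTSZ (-0.26) lie below 0.

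The spread among arrays was small for most members. Their SD ran from 0.022 to 0.20 in 2D and from 0.029 to 0.40 in 3D, with medians of 0.066 and 0.095, against medians of 0.13 and 0.14 over all genes. In 3D, replicate 1 was above the mean of replicates 2 and 3 for 6 members and below it for 4. The members' mean level, relative to each gene's own mean, ran from -0.16 to -0.09 in 2D and from 0.10 (replicate 1) to 0.14 in 3D. The groups were therefore apart for this mean.

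The 5 other cathepsin genes listed were all measured. Of them 2 rose, 0 fell and 3 did not pass, with 3 higher and 0 lower at an unadjusted p under 0.05 (limma). For this list and those below, the shares called over all genes were 5.23% higher and 4.77% lower. At the unadjusted threshold, 1716 of 14884 genes were higher and 1777 lower. CTSO, a papain-family member, read 7.34, 8.07 and 7.98 in 2D and 8.88, 9.21 and 9.28 in 3D. Its rise of 1.33 ± 0.21 (SE, n = 3, limma adjusted p = 0.00707) was called without any single array, although 2D replicate 1 lay far below the other 2D arrays. CTSV, the paralog of CTSL, rose by 0.57 ± 0.12 (limma adjusted p = 0.0262), and leaving out replicate 2 or 3 of either group ended this call (adjusted p as high as 0.103). The aspartic peptidase gene CTSE gave 0.33 ± 0.11, CTSW, known from cytotoxic lymphocytes, 0.23 ± 0.23, and the neutrophil serine peptidase gene CTSG 0.09 ± 0.17. The list's median change was 0.33.

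Of 10 other lysosomal peptidases and cathepsin partners 9 were measured, and 3 rose, 0 fell and 6 did not pass (4 higher and 0 lower at an unadjusted p under 0.05, limma). NEU1, the sialidase that CTSA shields, rose by 0.60 ± 0.12 (SE, n = 3, adjusted p = 0.0219), from 7.28, 7.48 and 7.09 to 7.98, 7.82 and 7.84. LGMN, encoding legumain, which cleaves several cathepsin precursors, rose by 0.51 ± 0.10 (adjusted p = 0.0201), from 9.13, 9.22 and 8.995 to 9.57, 9.72 and 9.58. TPP1, a lysosomal tripeptidyl peptidase, rose by 0.48 ± 0.12 (adjusted p = 0.0397), from 8.84, 9.01 and 8.90 to 9.20, 9.48 and 9.52. In each of the 3 genes, named for their calls on the same arrays, every 3D array was above every 2D array, as in 13.8% of all genes. NEU1 and LGMN were no longer called once 2D replicate 1 or 3, or 3D replicate 2 or 3, was left out (adjusted p as high as 0.0719 and 0.0887). TPP1 kept its call only if the array left out was 3D replicate 1 (otherwise 0.078 to 0.145), and it lost the call after centring on array medians (0.0511). SCPEP1, a serine carboxypeptidase, gave 0.46 ± 0.12 (adjusted p = 0.0581) and passed with a trended robust variance (0.0253), without dim probe sets (0.0492) and without 2D replicate 2 (0.0497). DPP7 gave 0.13 ± 0.11, and the saposin precursor gene PSAP -0.08 ± 0.11. The list's median change was 0.19, and GLB1 was not analysed here.

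The inhibitor list had 12 of 15 genes measured, and 0 passed in either direction (limma; 2 higher and 0 lower at an unadjusted p under 0.05, median change 0.03). Cystatin B, the cytosolic inhibitor encoded by CSTB, read 10.22, 10.16 and 10.09 in 2D and 10.40, 10.44 and 10.43 in 3D, a change of 0.27 ± 0.09 (SE, n = 3, limma adjusted p = 0.107); with a trended robust variance it passed (adjusted p = 0.0202). Cystatin C, the main secreted inhibitor, encoded by CST3, gave 0.12 ± 0.11 (adjusted p = 0.626), and CST2 gave 0.04 ± 0.17. KNG1 was the other inhibitor gene with an unadjusted p under 0.05 (0.24 ± 0.09), and it is named after its value was seen.

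Of 15 genes for mannose 6-phosphate tagging and sorting 3 were measured, and 0 passed either over all genes or at an unadjusted p under 0.05 (limma, median change 0.20). The mannose 6-phosphate receptor genes gave 0.20 ± 0.10 (IGF2R; SE, n = 3, 95% interval -0.04 to 0.44) and -0.02 ± 0.08 (M6PR; -0.22 to 0.17). NAGPA, the enzyme that uncovers the tag, gave 0.22 ± 0.14. None of the 16 vacuolar proton pump genes on the list was analysed here.

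Of 19 regulators of lysosomal genes 15 were measured, and 0 passed (limma; 1 higher and 2 lower at an unadjusted p under 0.05, median change -0.06). TFE3, a relative of TFEB, read 8.66, 8.78 and 8.79 in 2D and 8.51, 8.39 and 8.45 in 3D, a change of -0.29 ± 0.09 (SE, n = 3, limma adjusted p = 0.0979); with a trended robust variance it passed (0.0344). FNIP1 gave -0.16 ± 0.09 and RRAGA, a GTPase that recruits mTOR complex 1 to lysosomes, 0.02 ± 0.09. The remaining values were chosen after they were seen. MITF, another TFEB relative, gave -0.52 ± 0.15 (adjusted p = 0.0805, and 0.0381 without 2D replicate 3), FNIP2 0.20 ± 0.08 and TFEB itself -0.06 ± 0.16 (95% interval -0.44 to 0.33). RNA levels say nothing of where these regulators lie in the cell.

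**Figure D3:**
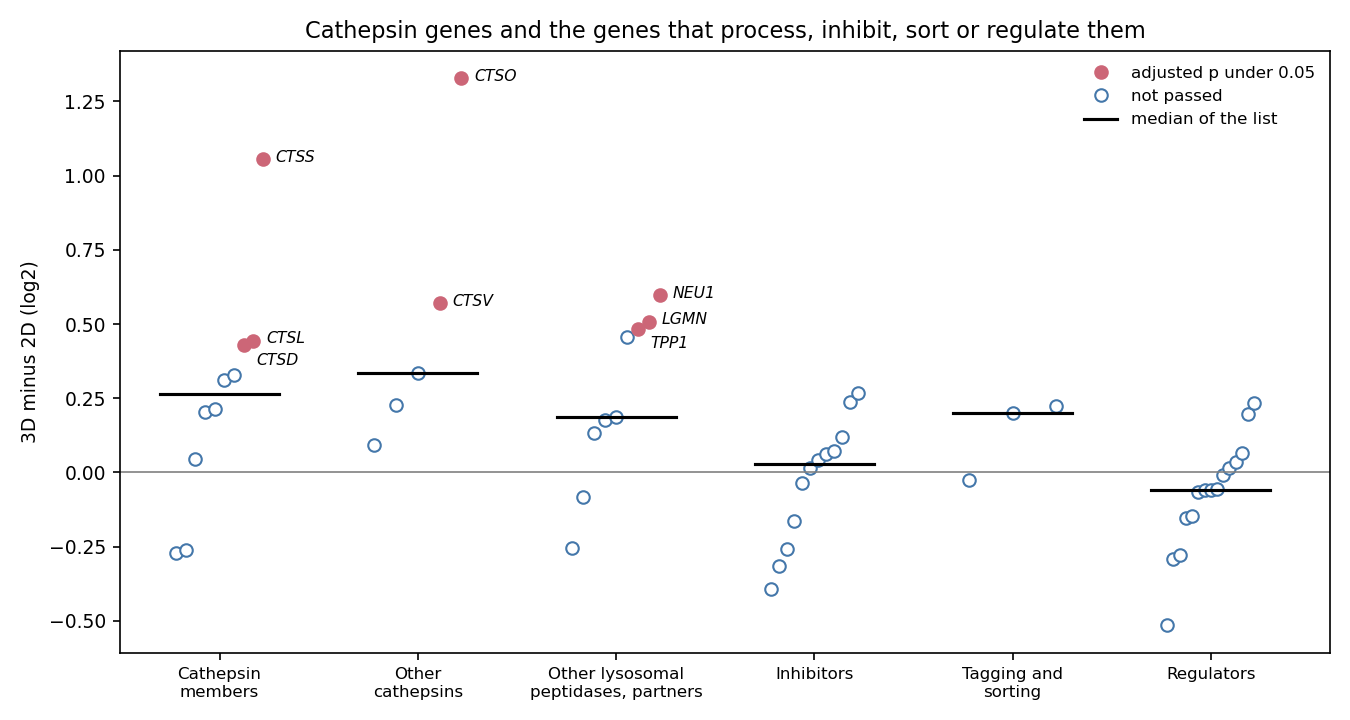
Fitted change (3D minus 2D, log2, vertical axis) of every measured gene in the cathepsin group and 5 related lists, 1 point per gene; filled red points passed an adjusted p of 0.05 (limma) and black lines are list medians. The called genes are CTSS, CTSL, CTSD, CTSO, CTSV, NEU1, LGMN and TPP1, all higher in 3D, while 0 inhibitor, sorting or regulator genes passed.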

How the data were processed

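Expression was measured in 6 samples of SKOV3 cells (2D, n = 3; 3D, n = 3) from 100 ng of total RNA each. The authors' deposited table holds log2 values made with RMA, per the submitters' processing notes; the scale follows from the range of the values, and the sources used here give no version, probe grouping or filter. Labelling was with a 3′ IVT kit per the labels, but the annotation used is for a Human Gene ST design, and this difference was not resolved. RMA compresses changes of dim probe sets. Of 53617 probe sets, 16098 carried 1 symbol, 0 several and 37519 none. Symbols were updated through gene identifiers (16098 found in RefSeq, GRCh38.p14). Each gene was read from its brightest probe set by mean over the 6 arrays (14884 genes). Groups were compared with limma 3.58.1 in R 4.3.3, two-sided, adjusted by Benjamini-Hochberg over all genes (threshold 0.05), and checked on simulated data. The number of arrays limits the precision. Motifs were searched with Python 3.11.15.

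The members and lists were chosen with earlier results of these data known. All 10 members are named; of each list, up to 6 called genes with the largest change, up to 3 others with the highest mean level, and the genes behind counts of 5 or fewer. Alternatives were a repeated quantile normalization, median centring, the mean of a gene's probe sets, leaving out dim probe sets, all probe sets singly, the replicate number as a block, a trended robust variance, and each array left out.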

Additional observations from a re-analysis of the deposited data

How the results depend on the processing

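CTSS was called in all 13 alternatives, with a change of 0.99 to 1.14 and an adjusted p of up to 0.00967. The 7 members that did not pass stayed so, and no member changed sign. CTSD (0.43) and CTSL (0.44) kept their size but lost the call when all 53617 probe sets were tested singly (adjusted p = 0.115 and 0.0985), leaving 1 member called. Leaving out single arrays gave CTSD changes of 0.37 to 0.46 and CTSL changes of 0.40 to 0.48, with 1 to 3 members called and a median over the members of 0.22 to 0.33 (0.32 without 2D replicate 2).

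Deviations from the group mean correlated at -0.28, -0.06 and -0.18 between same-numbered arrays, and at -0.14 to 0.23 between unlike-numbered ones. Within a group the deviations depend on each other, so these values cannot decide whether replicate numbers pair the samples. With the number as a block, CTSD (0.43, adjusted p = 0.0942) and CTSL (0.44, 0.104) were not called, and 1 member, 1 other cathepsin (CTSO) and 0 lysosomal peptidases or partners remained. Over all genes the block left 433 higher and 327 lower calls, against 778 and 710.

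Testing all probe sets singly gave 385 higher and 276 lower genes, 1 other cathepsin and 0 peptidases or partners. Leaving out single arrays gave 420 to 1096 higher and 349 to 803 lower genes, 1 to 2 other cathepsins, 0 to 3 peptidases or partners and 0 to 1 lower regulators (MITF). The trended robust variance called 1 inhibitor (CSTB, higher), 1 regulator (TFE3, lower) and 4 peptidases or partners (SCPEP1 added). The scaling alternatives moved the median of all genes from -0.01 to between -0.02 and -0.0018. Without 3D replicate 1 the calls over all genes rose to 1096 higher and 803 lower, although fewer arrays were used. The causes of these shifts were not tested.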
